A study of Homo sapiens with 16 samples.

Results

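The 8 genes described here control how human cells sense, take up and export sterols, and they were followed in MCF10A cells over 45 h of HER2 kinase inhibition. They are the SREBP transcription factors SREBF1 and SREBF2, their escort SCAP, the retention proteins INSIG1 and INSIG2, the sterol exporters ABCA1 and ABCG1, and the ubiquitin ligase MYLIP. Every row of the intensity table that carries 1 of these symbols was taken and kept separate, which gave 14 probes for the 8 genes among 20589 rows for 18190 symbols. Of these, 9 probes for 7 genes were above background on at least 3 arrays and were tested, and ABCA1 had no tested probe.

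MCF10A cells are a nontransformed line of human mammary epithelium, grown here in medium with insulin, EGF, hydrocortisone and bovine serum albumin. A small molecule that blocks the kinase of HER2 was added at 1 µM, and total RNA was taken from parallel cultures every 3 h from 0 h, which is labelled untreated, to 45 h. Each of the 16 time points had 1 Illumina human Ref8v2 array, so there was no replicate at any time, and no series without the inhibitor was analysed here. The effect of the inhibitor therefore cannot be told apart from that of fresh medium at its addition or of time in culture, and all arrays are of 1 cell line.

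SREBP proteins are made as membrane-bound precursors in the endoplasmic reticulum. When sterols are low, SCAP carries the precursor to the Golgi, where 2 proteases release the part that enters the nucleus and switches on genes of sterol and fatty acid synthesis and of lipoprotein uptake. When sterols are high, the INSIG proteins hold SCAP back, and INSIG1 is itself switched on by SREBPs, as are both SREBF genes. The liver X receptors (LXR) are nuclear receptors for oxidised sterols that switch on ABCA1, ABCG1, MYLIP and SREBF1. ABCA1 and ABCG1 pass cholesterol to lipoproteins outside the cell, and MYLIP marks lipoprotein receptors for degradation.

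The regions around the start sites of INSIG1 and SREBF1, the genes with the largest early falls, are shown first, with that of SREBF2, the second SREBP gene, whose early fall was small. Each line gives 300 bases from RefSeq (GRCh38.p14), read on the strand of the gene, with 250 bases before the start site and 50 after it. Capitals mark matches to 4 short motifs searched on both strands, which are the sterol regulatory element TCACNCCAC, the E-box CACGTG, the CCAAT box and the GC box GGGCGG. INSIG1 lies on the plus strand at chr7:155297628-155297927, SREBF1 on the minus strand at chr17:17836937-17837236 and SREBF2 on the plus strand at chr22:41832855-41833154.
INSIG1: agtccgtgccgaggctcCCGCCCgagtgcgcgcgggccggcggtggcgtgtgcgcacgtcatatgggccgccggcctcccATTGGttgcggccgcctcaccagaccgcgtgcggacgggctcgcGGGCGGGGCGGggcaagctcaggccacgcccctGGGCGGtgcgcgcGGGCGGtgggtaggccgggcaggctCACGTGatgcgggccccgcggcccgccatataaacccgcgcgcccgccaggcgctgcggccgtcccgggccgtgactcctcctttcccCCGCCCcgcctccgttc
SREBF1: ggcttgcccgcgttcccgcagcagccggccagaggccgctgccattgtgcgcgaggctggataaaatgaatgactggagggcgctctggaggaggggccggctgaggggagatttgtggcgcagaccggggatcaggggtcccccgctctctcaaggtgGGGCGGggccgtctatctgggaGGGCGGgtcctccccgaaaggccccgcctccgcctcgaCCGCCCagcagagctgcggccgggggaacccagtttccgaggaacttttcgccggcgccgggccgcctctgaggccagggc
SREBF2: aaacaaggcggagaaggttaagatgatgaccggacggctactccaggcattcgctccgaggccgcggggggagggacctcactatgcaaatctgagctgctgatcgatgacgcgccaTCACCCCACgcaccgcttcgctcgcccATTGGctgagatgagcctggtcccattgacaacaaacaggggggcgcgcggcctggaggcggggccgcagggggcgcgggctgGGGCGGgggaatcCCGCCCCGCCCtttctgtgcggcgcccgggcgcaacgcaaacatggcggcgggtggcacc
The SREBF2 window held the sterol regulatory element at position -133 from the start site and a CCAAT box on the opposite strand at position -106. The INSIG1 window held an E-box at position -55, a CCAAT box on the opposite strand at position -170 and several GC boxes, 2 of which share a base. The SREBF1 window, the only window searched for that gene, held GC boxes alone among the 4 motifs. Any start site outside the windows was not searched. Of the 8 windows matched for 7 of the genes, that of SREBF2 was the only 1 with the sterol regulatory element, and the windows of INSIG2, MYLIP, SCAP and ABCA1, not shown, had none. An E-box was also in the SCAP and ABCA1 windows, a CCAAT box in that of MYLIP, and a GC box in all 8. The INSIG2 windows overlap and hold the same GC box, which was counted in each. Of 35116 windows of this length, 1.13% held the sterol regulatory element, 7.26% the E-box, 34.6% the CCAAT box and 45.0% the GC box. These matches describe the letters of the windows and say nothing of which factor was bound in these cells.

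Values are background-corrected, quantile-normalized intensities on the log2 scale, so that a difference of 1 is a doubling. Between 50.1% and 52.9% of rows were above background on each array by a detection p under 0.05. Of 9 symbols that mark mammary epithelium, 6 were detected on all arrays, among them the keratins KRT5 and KRT17, although KRT14 was detected on 1 array. A bright row of LAMB3, with intensities of 1658 to 4132, counted as not detected because its detection p is not comparable. Of 9 symbols that mark immune, endothelial or connective tissue cells, 4 were never detected, and CD68 and ACTA2 were detected on all arrays. The other 3 were detected on some arrays, PECAM1 on 15 and PTPRC and DCN on at most 5 for any 1 row. Because no time had a second array, neighbouring times served as the measure of spread, and the p-values hold only against that spread.

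**Figure D1:**
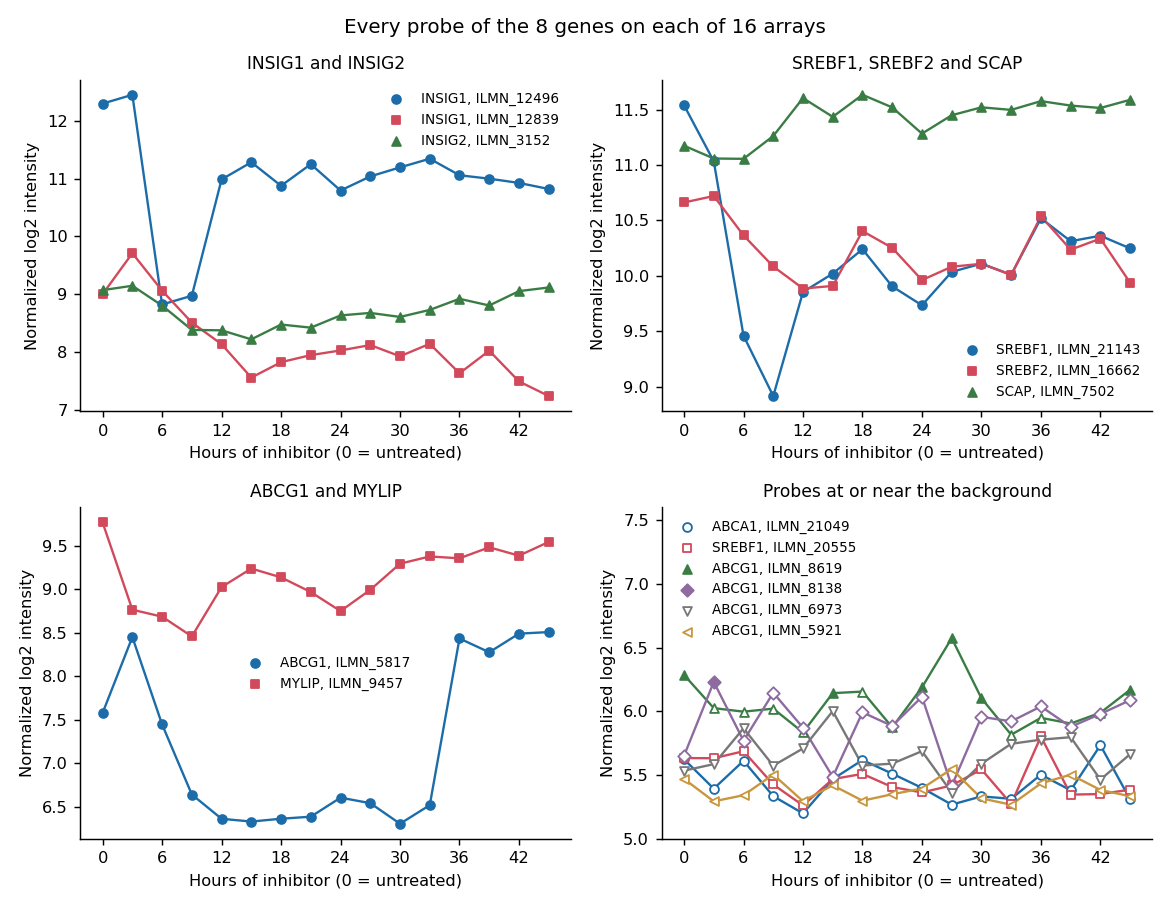
Normalized log2 intensity (vertical axes) of each of the 14 probes against hours of inhibitor (horizontal axes), with 1 array per point, filled where the detection p was under 0.05 and open where it was not. INSIG1 probe ILMN_12496 and SREBF1 probe ILMN_21143 were lowest at 6 and 9 h, ABCG1 probe ILMN_5817 stepped up at 36 h, and the probes of the last panel stayed between 5 and 7.

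INSIG1, the retention protein, had the largest fall among the tested probes of the 8 genes. Probe ILMN_12496 read 12.30 at 0 h and 12.45 at 3 h, then 8.82 at 6 h and 8.97 at 9 h. The deposited intensity, with no correction, was 4832 and 5272 at the first 2 times and 625 and 666 at the next 2. The 2 pairs were thus far apart, with an SD of 0.11 within each. From 0-3 h to 6-9 h it fell by 3.47 on the log2 scale (SE 0.13, n = 2 arrays against 2), or 11.1-fold, with an adjusted p of 1.14e-10 in limma. From 12 h the probe was back at 10.98 or 11.28, and over the later 8 arrays it lay between 10.79 and 11.34, below both of the first times on every array. The rise from 6-9 h to 12-15 h was 2.24 (SE 0.13, 4.71-fold, limma adjusted p = 1.18e-07). Both calls were made under all 24 alternative settings, in which the first difference lay between -3.55 and -3.08. The contrasts of pairs were chosen with the early dip known from earlier results of these data, so these p-values do not test it independently.

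SREBF1 encodes the SREBP best known for fatty acid synthesis. Its detected probe, ILMN_21143, read 11.54 at 0 h, 11.03 at 3 h, 9.46 at 6 h and 8.92 at 9 h. All later arrays lay between 9.73 and 10.52, above both low arrays and below both first ones. From 0-3 h to 6-9 h it fell by 2.10 (SE 0.19, 4.28-fold, limma adjusted p = 1.46e-06), a call made under all 24 alternatives. The rise from 6-9 h to 12-15 h was 0.75 (SE 0.19, 1.68-fold, limma adjusted p = 0.00889), and this call was lost without the array of 9 h (0.48, adjusted p = 0.102) or of 15 h (0.67, adjusted p = 0.0779). The second SREBF1 probe, ILMN_20555, was not detected on any array, with intensities of 152 to 208.

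SREBF2 encodes the SREBP best known for sterol synthesis, and it moved less. Probe ILMN_16662 read 10.66, 10.72, 10.36 and 10.08 at the first 4 times, and ranged from 9.89 at 12 h to 10.54 at 36 h thereafter. From 0-3 h to 6-9 h it fell by 0.47 (SE 0.14, 1.38-fold, limma adjusted p = 0.0221). That call was lost under median scaling (-0.37, adjusted p = 0.087), without the array of 3 h (-0.44, adjusted p = 0.0639) or of 9 h (-0.33, adjusted p = 0.213), and with the arrays compared fitted alone (adjusted p = 0.106).

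INSIG2, the second retention protein, also fell early. Probe ILMN_3152 read 9.07 at 0 h, 9.15 at 3 h, 8.80 at 6 h and 8.38 at 9 h. It was lowest at 15 h (8.22) and read 9.05 and 9.12 on the last 2 arrays, close to the first 2. Between 0-3 h and 6-9 h it fell by 0.52 (SE 0.15, 1.43-fold, limma adjusted p = 0.017). The fall was not called without the array of 3 h (-0.48, adjusted p = 0.0581) or of 9 h (-0.30, adjusted p = 0.22), or with the arrays compared fitted alone (adjusted p = 0.186).

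SCAP, the escort, had no call in the early step and rose afterwards. Probe ILMN_7502 read 11.17, 11.06, 11.06 and 11.26 at the first 4 times, and its difference between 6-9 h and 0-3 h was 0.042 (95% interval -0.16 to 0.25). From 12 h on every array lay between 11.28 and 11.63, above all of the first 4. The rise from 6-9 h to 12-15 h was 0.36 (SE 0.10, limma adjusted p = 0.0148), lost without the array of 6 h (0.26, adjusted p = 0.15) or of 12 h (0.28, adjusted p = 0.153) and with the arrays compared fitted alone (adjusted p = 0.0504). The rise from 0-9 h to 36-45 h was 0.42 (SE 0.072, n = 4 against 4, 1.33-fold, limma adjusted p = 0.000299) and was called under all 24 alternatives.

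The second INSIG1 probe, ILMN_12839, followed another course. It read 9.00 at 0 h, 9.71 at 3 h, 9.06 at 6 h and 8.51 at 9 h, 7.56 at 15 h, and was lowest at 45 h (7.24). The first 4 arrays all lay above the later 12, the highest of which was 8.14. From 0-9 h to 36-45 h it fell by 1.47 (SE 0.21, 2.78-fold, limma adjusted p = 4.4e-05), a call made under all 24 alternatives. With no background correction the difference was -0.96. Between 0-3 h and 6-9 h it differed by -0.57 (95% interval -1.09 to -0.046, limma adjusted p = 0.107), and from 6-9 h to 12-15 h, where the first probe rose, it fell by 0.94 (SE 0.25, limma adjusted p = 0.0128). The latter call was lost without the array of 6 h (-0.66, adjusted p = 0.157) or of 15 h (-0.65, adjusted p = 0.16). Over the 16 arrays the INSIG1 probes had a Pearson correlation of 0.07, and the table gives no position or transcript for either.

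ABCG1, a sterol exporter, had a late step. Probe ILMN_5817 read 7.58 at 0 h, 8.45 at 3 h, 7.45 at 6 h and 6.64 at 9 h, then stayed between 6.31 and 6.61 from 12 to 33 h. It read 8.43 at 36 h, 8.28 at 39 h, 8.49 at 42 h and 8.51 at 45 h. The 4 last arrays lay well above the 8 before them and close to the array of 3 h. The deposited intensity was 259 at 33 h and 554 at 36 h. The rise from 24-33 h to 36-45 h was 1.93 (SE 0.24, n = 4 against 4, 3.82-fold, limma adjusted p = 8.06e-06), called under all 24 alternatives, and 1.00 with no background correction. Against 0-9 h the rise was 0.90 (SE 0.24, limma adjusted p = 0.00834), and 0.50 with no background correction. That call was lost with the arrays compared fitted alone (adjusted p = 0.0638).

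Early in the series, from 0-3 h to 6-9 h, this ABCG1 probe fell by 0.97 (SE 0.26, limma adjusted p = 0.0113). The difference was -0.51 with no background correction, and it was not called without the array of 3 h (-0.54, adjusted p = 0.139) or of 9 h (-0.57, adjusted p = 0.195), or with the arrays compared fitted alone (adjusted p = 0.161). The late step was not seen with the other 4 ABCG1 probes, which lay at or near the background. ILMN_8619, detected on 6 arrays, differed by -0.17 between 24-33 h and 36-45 h (95% interval -0.47 to 0.13). ILMN_8138 was detected on 1 array, and ILMN_6973 and ILMN_5921 on none. ABCA1, the other exporter, has a single probe, ILMN_21049, that was not detected on any array, with intensities of 145 to 203. A level at the background of the array is an upper bound and does not show that the gene was silent.

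The late step of ABCG1 came at a time when many genes changed. Of the tested rows, 764 changed at least 1.7-fold between 33 and 36 h, against 55 between 30 and 33 h and 50 between 36 and 39 h. The summed intensity of the 13 probes for markers of other cells was 5317 to 6204 on the arrays before 36 h and 6842 to 7589 from 36 h on. Of these markers ACTA2, a smooth muscle actin, was the 1 of 5 tested that rose from 24-33 h to 36-45 h (0.98, limma adjusted p = 2.95e-07), 0 fell, and COL1A1, COL3A1, CDH5 and CD3E stayed undetected on all arrays. From 0-9 h to 36-45 h, 3 of the 5 rose, PECAM1 (0.84), CD68 (0.68) and ACTA2 (0.56), and 0 fell. Of all rows, 16.2% rose and 15.0% fell in that contrast. Their part in the ABCG1 result was not tested.

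MYLIP, the ligase that acts on lipoprotein receptors, was highest on the untreated array. Probe ILMN_9457 read 9.77 at 0 h, 8.76 at 3 h, 8.68 at 6 h and 8.46 at 9 h, and then between 8.75 and 9.54. The array of 3 h already lay 1.00 below that of 0 h. Between 0-3 h and 6-9 h it fell by 0.69 (SE 0.22, limma adjusted p = 0.0317). Without the array of 0 h that difference was -0.19 (adjusted p = 0.495). It was also not called without the array of 9 h (-0.58, adjusted p = 0.191), under median scaling (-0.61, adjusted p = 0.0508), with no intensity trend (adjusted p = 0.0583) and with the arrays compared fitted alone (adjusted p = 0.23). From 0-9 h to 36-45 h it differed by 0.52 (95% interval 0.085 to 0.96, limma adjusted p = 0.0644).

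**Figure D2:**
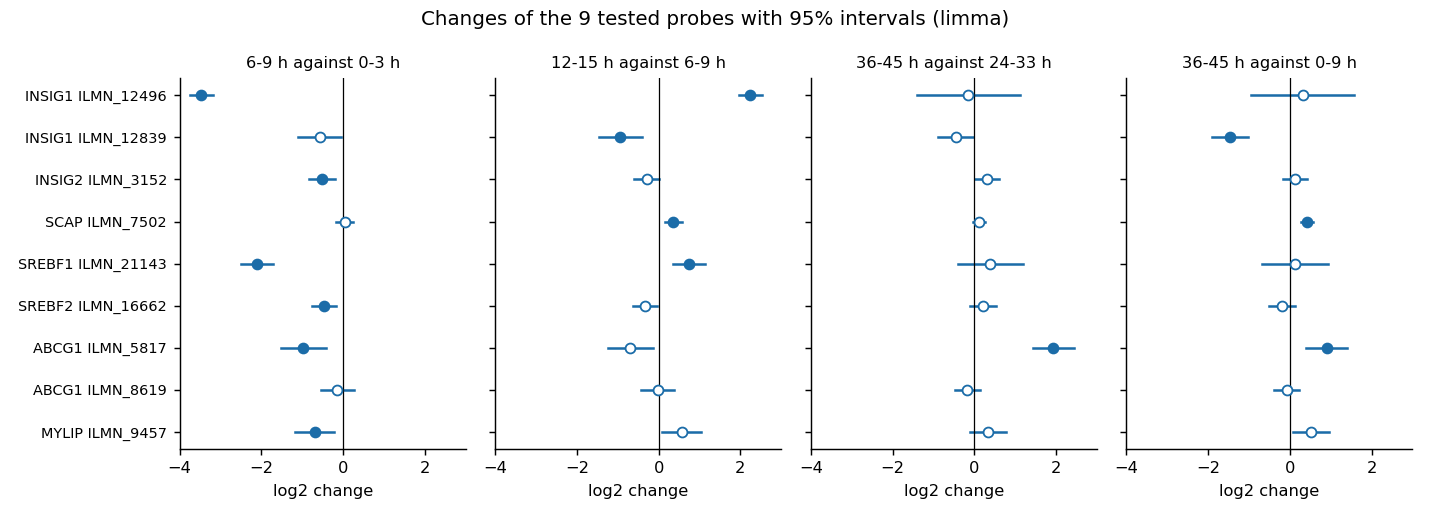
Change on the log2 scale (horizontal axes) of each of the 9 tested probes in the 4 contrasts, with 95% intervals from limma, filled where the adjusted p was under 0.05. At 6-9 h all 6 filled points lie below 0, and the late contrast has 1 filled point, ABCG1 at 1.93.

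Counted together, 6 of the 9 tested probes fell from 0-3 h to 6-9 h and 0 rose, where 11.5% of all 11957 tested rows fell and 13.2% rose. At an unadjusted limma p under 0.05, 7 were lower and 0 higher. Many rows changed at these times, and 641 of all tested rows changed at least 1.7-fold between 0 and 3 h, 896 between 3 and 6 h, 269 between 6 and 9 h and 880 between 9 and 12 h. The median change of the 9 was -0.57, beside -0.0072 for all rows. The number called was 2 with the arrays compared fitted alone and also without the array of 9 h, and 3 without that of 3 h. INSIG1 ILMN_12496 and SREBF1 were the probes that kept the call under every alternative. From 6-9 h to 12-15 h, 3 probes rose and 1 fell, where 11.2% of all rows rose and 10.5% fell. Fewer were called without the array of 6 h or of 15 h, with 2 in each.

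Late in the series the members' calls were few. From 24-33 h to 36-45 h, 1 probe rose and 0 fell, beside 19.3% and 18.7% of all rows, and the median change was 0.22. The number called was 2 without the array of 0, 3 or 39 h, 3 without that of 9 h, 2 under median scaling and 5 with the arrays compared fitted alone. At an unadjusted limma p under 0.05 there were 2 higher, INSIG2 (0.31) beside ABCG1, and 1 lower, INSIG1 ILMN_12839 (-0.46). From 0-9 h to 36-45 h, 2 probes rose and 1 fell, beside 16.2% and 15.0% of all rows. For INSIG1 ILMN_12496 the first window held both high and low arrays, and the difference of 0.31 had a 95% interval from -0.94 to 1.57.

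A smooth curve over all times was called for 6 of the 9 probes, where 54.6% of all rows were called, so the share of the members was close to the background. INSIG1 ILMN_12496 was not among them (limma adjusted p = 0.362), and was called with a more flexible curve (adjusted p = 0.0207) and with an F-test over the 8 pairs (adjusted p = 5.42e-09). The calls of SREBF1 (adjusted p = 0.0262) and SREBF2 (adjusted p = 0.0323) were each lost in 5 of 26 alternatives, among them leaving out the array of 0 h (0.286 and 0.152) or of 3 h (0.0953 and 0.151). SREBF1 also lost it without the array of 12 h (0.0516), and SREBF2 without that of 15 h (0.0659). MYLIP, with an adjusted p of 0.0541, was called in 9 of 26 alternatives, including without the array of 0 h (0.00241), 3 h (0.049), 15 h (0.0239) or 18 h (0.0388).

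The enzymes of sterol synthesis, the targets on which SREBPs act, also fell early. Of 21 tested rows for these enzymes, 18 fell from 0-3 h to 6-9 h, 0 rose and 3 were not called, with a median of -0.80. The largest changes were those of HMGCS1 (-2.32, 4.99-fold, limma adjusted p = 2.33e-07), an early enzyme of the mevalonate pathway, and of IDI1 (3.26-fold lower, limma adjusted p = 0.000113), an isomerase of isoprenoid precursors. Of all rows, 11.5% fell and 13.2% rose over this step. Between 14 and 20 of the enzyme rows fell under the alternatives.

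After 9 h the enzyme rows did not all move the same way. From 6-9 h to 12-15 h, 3 rows rose, among them HMGCS1 by 1.02, and 7 fell further, led by LSS, which closes the sterol rings (-2.41 for ILMN_12246, limma adjusted p = 2.43e-06, and -1.001 for its second probe, ILMN_30260), TM7SF2 (-1.61), a sterol reductase, and MVD (-1.08), a decarboxylase of the mevalonate pathway. Of all rows, 11.2% rose and 10.5% fell over this step, so the share of enzyme rows that rose was near that of all rows. The number of enzyme rows that rose was 7 under median scaling or without the array of 6 h, and 5 without that of 0 or 3 h. INSIG1 ILMN_12496 and SREBF1 rose over that step as HMGCS1 did. From 0-9 h to 36-45 h, 10 enzyme rows fell and 0 rose, led by LSS (-1.51 and, for the second probe, -1.22), ACAT2 (-1.35), which makes acetoacetyl-CoA, and MVD (-1.28). Of all rows, 15.0% fell and 16.2% rose in that contrast. Without the array of 9 h the number of enzyme rows that fell was 16. From 24-33 h to 36-45 h, 2 enzyme rows rose, LSS ILMN_12246 (1.03) and TM7SF2 (0.88), and 2 fell, PMVK (-0.44) and ACAT2 (-0.37). Of all rows, 19.3% rose and 18.7% fell over that late step. The second LSS probe was not called (0.20, limma adjusted p = 0.466).

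**Figure D3:**
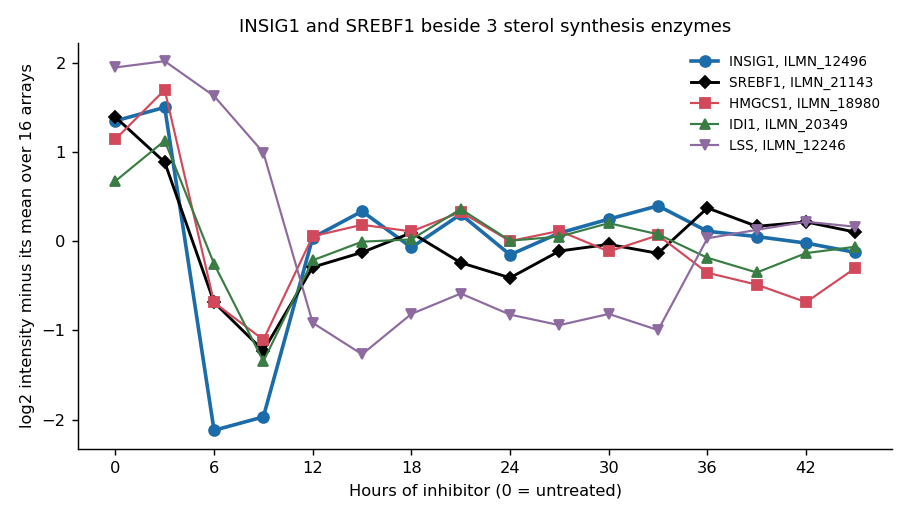
Log2 intensity minus its mean over the 16 arrays (vertical axis) against hours of inhibitor (horizontal axis) for INSIG1 ILMN_12496, SREBF1 and 3 enzymes of sterol synthesis, 1 array per point. INSIG1, SREBF1, HMGCS1 and IDI1 had their lowest array at 6 or 9 h, while LSS ILMN_12246 was lowest from 12 to 33 h.

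The other lists moved less uniformly. Of 14 rows for fatty acid synthesis and desaturation, 5 fell from 0-3 h to 6-9 h and 0 rose, led by FADS1 (-0.89), a desaturase, ACLY (-0.56), which makes cytosolic acetyl-CoA, and SCD (-0.40), a further desaturase. The background for this step is the 11.5% of all rows that fell and 13.2% that rose. The number that fell was 3 under median scaling or without the array of 6 h, 2 without that of 0 h, 1 without that of 9 h, and 2 with the arrays compared fitted alone. Of 24 rows for the proteins that process, carry or degrade SREBPs and INSIGs, 5 rose and 4 fell over the same step, with a median of -0.0037, and the share that fell was near that of all rows. The rows that rose were those of SEC23A (0.70, not detected at 0 or 3 h), UBE2G2 (0.69), SAR1B (0.53), PAQR3 (0.52) and SEC23B (0.48). Among those that fell, the site 1 protease gene MBTPS1 changed by -0.79 (limma adjusted p = 0.00349) and, for its second probe, by -0.52. The others that fell were UFD1L (-0.70) and FBXW7 (-0.52). With the arrays compared fitted alone, 1 of the 24 rows rose and 0 fell, and without the array of 9 h, 3 rose and 2 fell. Without that of 0 h, 2 fell, and 3 rose among the rows detected on all 16 arrays.

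Some receptors and targets on the export side fell early and rose late. From 0-3 h to 6-9 h, 11.5% of all rows fell and 13.2% rose. Of 11 rows for LXR, its partners and targets other than the members, 4 fell over that step and 1 rose. That rise was lost under 9 of 24 alternatives. From 24-33 h to 36-45 h, 6 rose and 0 fell, with a median of 0.37, beside the 19.3% of all rows that rose and 18.7% that fell. They included RXRA (0.82, limma adjusted p = 0.00154), the partner of LXR, NR1H3 (0.75, limma adjusted p = 6.33e-05), which encodes LXR alpha, and SMPDL3A (0.75, limma adjusted p = 0.00427), a phosphodiesterase. RXRA and SMPDL3A had changed by -0.83 and -0.91 from 0-3 h to 6-9 h (limma adjusted p = 3.99e-05 and 0.000286), and their late values were close to those of 0 h, with 11.85 at 0 h and 11.95 at 36 h for RXRA, and 9.98 and 9.87 for SMPDL3A. From 0-9 h to 36-45 h, 2 of the 11 rows rose and 1 fell, beside 16.2% and 15.0% of all rows. The share of these rows that rose was thus near that of all rows. Under median scaling 4 of them rose. Between 4 and 7 rose in the late contrast under the alternatives. Of 26 rows for sterol transport and esterification, 9 rose and 4 fell in the late contrast, where the share that fell was close to that of all rows. Without the array of 30 h, 2 fell. The rows that rose included the lipid transporter ABCA3 (0.86) and the sterol-binding OSBPL2 (0.79).

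On the uptake side, LRP8, a receptor for apolipoprotein E, rose over the step at which SREBF1 and SREBF2 fell. It read 6.94 at 0 h, 7.86 at 3 h, 9.61 at 6 h and 9.80 at 9 h, so that its lowest values were those of 0 and 3 h. The rise from 0-3 h to 6-9 h was 2.31 (SE 0.21, 4.96-fold, limma adjusted p = 1.68e-06), and it fell by 1.22 from 24-33 h to 36-45 h (limma adjusted p = 0.0283). NPC1, which moves cholesterol out of lysosomes, fell by 1.38 from 0-3 h to 6-9 h (limma adjusted p = 2.72e-05), and TMEM97, a membrane protein that binds NPC1, fell by 0.81 (limma adjusted p = 4.25e-06).

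**Figure D4:**
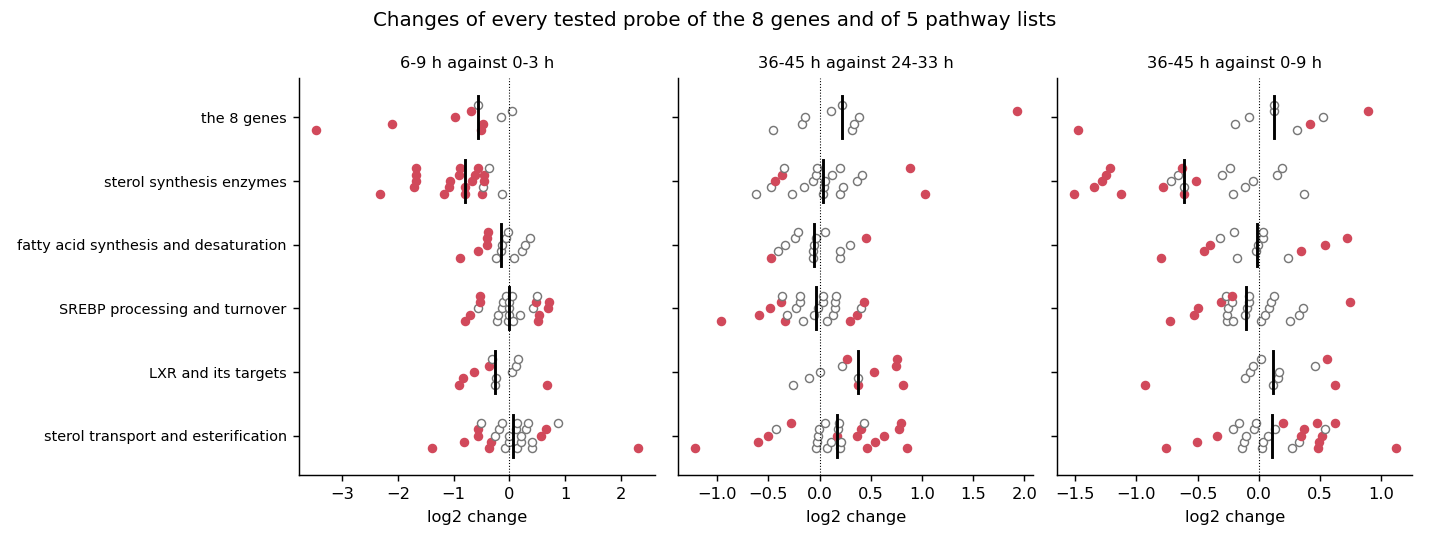
Change on the log2 scale (horizontal axes) of every tested probe of the 8 genes and of 5 lists of related genes in 3 contrasts, filled where the adjusted p was under 0.05, with a black bar at each median. At 6-9 h the sterol synthesis enzymes have 18 filled points, all below 0, and the late contrast has 6 filled points for LXR and its targets, all above 0.

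The courses most like those of the members were ranked by Pearson correlation over the 16 arrays among 8635 other rows detected on all arrays. All points share these arrays, and the values are a description. INSIG1 ILMN_12496 had a close course in MTHFD2 (0.91), a mitochondrial folate enzyme, whereas ILMN_12839 was closest to VAPA (0.94), MSI2 (0.94) and ACAT2 (0.93). SREBF1 was closest to NXF1 (0.96), CDKN1A (0.93) and ZFYVE26 (0.92), and SREBF2 to UBTD1 (0.93), MAPK11 (0.91) and USF2 (0.89). INSIG2 was closest to MAP1LC3B (0.93), STX5A (0.92) and FNBP1L (0.92), and SCAP to LRPPRC (0.96), SLC30A9 (0.95) and TTC23 (0.94). ABCG1 ILMN_5817 was closest to MSLN (0.97), RGC32 (0.97) and LAMB2 (0.97), and MYLIP to SESN1 (0.94), SIRT1 (0.93) and NFKBIA (0.93). Among the members themselves the highest values were 0.86 for INSIG2 with ABCG1 ILMN_5817 and 0.84 for INSIG1 ILMN_12496 with SREBF1, and the lowest was -0.85 for INSIG1 ILMN_12839 with SCAP.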

How the data were processed

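RNA of MCF10A cells at 16 time points was hybridized by the authors to Illumina human Ref8v2 arrays, 1 array for each time. The authors deposited linear intensities that were not normalized between arrays, and for each a detection p-value against the negative control beads. The MCF10HER2 cells of the study were not analysed here. The summary software is not given in the sources used here. Of 20589 rows, 19092 had detection p-values that were whole multiples of 1 in 708 within 0.001 and stand for single probes, as all 14 member rows do. The other 1497 are combined rows, whose detection p is not comparable. They were held to the same detection threshold in the counts and the filter, so a bright combined row can count as not detected.

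Intensities were corrected with normexp (offset 16, with the control level of 166 to 199 inferred from the single-probe rows), then quantile normalized and put on the log2 scale (R 4.3.3, limma 3.58.1). A row was kept if its detection p was below 0.05 on 3 or more arrays, which left 11957. The number of arrays limits the precision. The offset compresses changes of dim probes.

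Tests used limma with an intensity trend and Benjamini-Hochberg adjustment over the 11957 rows, called under 0.05. Time dependence was tested with a natural cubic spline with 3 degrees of freedom. Contrasts came from a fit of 4 windows of 4 times (12 residual degrees of freedom) or of 8 pairs (8 residual degrees of freedom). Windows are not replicates, so their spread also holds change within them. The scripts were tested on simulated data. All member probes were described, with up to 3 called genes of largest change in each list and contrast, and the 3 rows closest in course, and results for some of these are not reported here. The members, lists and contrasts were chosen with earlier results of these data known. The labels name no chip or date.

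All 8 symbols are current in RefSeq (GRCh38.p14). Start-site windows were matched for 7 genes. Of the lists, symbols are those of the table. As alternatives, background correction was left out or run with an offset of 50, scaling was by the median or by cyclic loess, and other settings were no filter or detection on all 16 arrays, no trend, other curves, a fit of the compared arrays alone, and leaving out each time point. Figures were drawn with matplotlib 3.10.9.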

Additional observations from a re-analysis of the deposited data

How the results depend on the processing

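Over 45 results for the 9 tested probes and 1093 alternative values, 1016 kept their direction and their side of the threshold, 35 lost a call, 33 gained one and 9 turned direction. The number of member probes called in the time course was 2 with a straight line in time, beside 6, where the number over all rows was 1953 beside 6533. In the contrast of 36-45 h with 24-33 h it was 2 under median scaling and 5 with the arrays compared fitted alone, beside 1. In that of 6-9 h with 0-3 h it was 2 with the arrays compared fitted alone, beside 6, where the number over all rows was 882 beside 2957. Over the alternatives the limma adjusted p of the early fall ranged from 0.0121 to 0.213 for SREBF2, from 0.00301 to 0.22 for INSIG2, from 0.000863 to 0.195 for ABCG1 ILMN_5817 and from 3.55e-05 to 0.495 for MYLIP, and that of the step from 6-9 h to 12-15 h from 0.00212 to 0.102 for SREBF1, from 0.00828 to 0.153 for SCAP and from 0.00319 to 0.16 for INSIG1 ILMN_12839. Leaving out 1 time point gave 1 to 3 calls for 36-45 h against 24-33 h, 2 to 7 for 6-9 h against 0-3 h, and 2 to 6 for 12-15 h against 6-9 h. The highest late count was without the array of 9 h.

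None of the differences that turned direction was called. That of SCAP between 36-45 h and 24-33 h was -0.059 under median scaling. Leaving out 1 time point gave -0.060 to 0.15 for SCAP at 6-9 h against 0-3 h, with -0.016 without 3 h and -0.060 without 9 h. For 36-45 h against 0-9 h it gave -0.29 to 0.92 for INSIG1 ILMN_12496 (-0.29 without 6 h, -0.24 without 9 h), -0.32 to 0.56 for SREBF1 (-0.14 without 6 h, -0.32 without 9 h) and -0.033 to 0.22 for INSIG2. For ABCG1 ILMN_8619 at 12-15 h against 6-9 h it gave -0.17 to 0.13. Median scaling moved the split of all called rows from 1932 higher and 1798 lower to 2794 and 1029 for 36-45 h against 0-9 h, from 2309 and 2233 to 1719 and 2935 for 36-45 h against 24-33 h, from 1583 and 1374 to 1794 and 1007 for 6-9 h against 0-3 h, and from 1339 and 1259 to 1651 and 840 for 12-15 h against 6-9 h. Apart from what the construction of an alternative shows (fewer arrays in the fit, a straight line in place of a curve), the cause was not tested. For 14 of the counts given for the lists of related genes these alternatives were run too, a choice made after seeing the data. No paired analysis was possible because each time point had 1 array. A signal near background limits ABCA1 and 4 of the 5 ABCG1 probes.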
